A study of Mus musculus with 2 samples.

Results

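The beta cell identity transcription factors are 10 genes whose proteins specify and maintain the insulin-producing cell: Pdx1, Mafa, Nkx6-1, Nkx2-2, Neurod1, Pax6, Isl1, Foxa2, Rfx6 and Insm1. They were chosen by gene symbol from the table of all genes, and all 10 of them were found among its 21542 genes. The measurements come from RNA sequencing of MIN6, a mouse insulinoma line of C57BL/6 origin that secretes insulin and serves as a beta cell model. The groups are 1 sample that received a vector expressing GR, the glucocorticoid receptor (gene Nr3c1), and 1 sample that received a control vector. Both groups shared their culture in medium with 25 mM glucose and 15% serum, and both received 4 ug of plasmid with 4.8 ul of a lipid transfection reagent in a 3.5 cm dish. The sources used here do not say whether a glucocorticoid was added, when the cells were harvested, or which GR cDNA the vector carried. MIN6 is a tumour line, and a transient transfection reaches some cells of a dish and not others, so each library is an average over both. With 1 library per group, no difference below has a replicate check.

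In the pancreas these factors act as a network. Pdx1 and Foxa2 act early in the developing organ, Insm1, Neurod1, Nkx2-2, Pax6, Isl1 and Rfx6 act in the endocrine lineage, and Nkx6-1 and Mafa mark the beta cell and its maturity. Several of them bind short elements in the insulin promoter, where homeodomain proteins read cores with the letters TAAT, basic helix-loop-helix pairs read E-boxes (CANNTG), and Mafa reads an element of its own. Glucocorticoids are known to impair insulin secretion, and the GR vector is one made to express their receptor. The question for these genes is whether their transcripts differ between the GR and the control library.

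The 3 promoters below show what the network acts on (Ins1, insulin 1), the member with the lowest fold (Foxa2), and Isl1. Among the 8 members whose promoters were matched, Isl1 was the 1 with a GR core before its start. They are RefSeq sequences of build GRCm38.p6, written 5′ to 3′ on the strand of the gene and ending at its start. Capitals mark, on either strand, the homeodomain core TAAT, the E-box CANNTG and the GR core with the letters TGTTCT. Ins1 is at chr19:52264047-52264296 (plus strand), Foxa2 at chr2:148046970-148047219 (minus strand) and Isl1 at chr13:116309690-116309938 (minus strand).
Ins1: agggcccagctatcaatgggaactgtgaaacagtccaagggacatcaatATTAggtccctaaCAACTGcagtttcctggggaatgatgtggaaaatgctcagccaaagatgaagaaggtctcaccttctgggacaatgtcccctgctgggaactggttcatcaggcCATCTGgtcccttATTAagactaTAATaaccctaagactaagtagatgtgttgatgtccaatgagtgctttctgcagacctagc
Foxa2: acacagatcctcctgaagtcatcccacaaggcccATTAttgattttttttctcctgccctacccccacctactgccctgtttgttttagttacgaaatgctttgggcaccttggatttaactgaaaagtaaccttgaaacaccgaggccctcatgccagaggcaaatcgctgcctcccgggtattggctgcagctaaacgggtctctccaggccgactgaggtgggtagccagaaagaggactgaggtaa
Isl1: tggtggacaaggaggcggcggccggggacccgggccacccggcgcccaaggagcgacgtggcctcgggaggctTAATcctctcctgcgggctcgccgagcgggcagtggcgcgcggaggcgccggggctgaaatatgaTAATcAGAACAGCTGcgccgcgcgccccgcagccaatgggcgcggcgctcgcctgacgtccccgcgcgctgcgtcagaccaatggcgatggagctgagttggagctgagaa

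RefSeq promoters were matched for 8 of the 10 members, all but Mafa and Insm1. They gave 11 starts in all, since Foxa2 has 3 starts and Pax6 has 2. In the 250 bases before each start, TAAT on either strand occurred in 7 of the 11 windows and in 54.9% of all 32851 promoter windows of that length. An E-box occurred in 6 of the 11 windows and in 66.2% of all windows, and the NK2 core AAGTG in 4 of the 11 and in 40.7% of all. The MAF core TGCTGA occurred in 3 of the 11 windows and in 16.1% of all. The GR core TGTTCT was found in 1 of the 11 windows, that of Isl1, where its last bases are the first of the E-box CAGCTG, and in 16.1% of all windows. No window of a member held the full GR palindrome (AGAACA, any 3 bases, TGTTCT), which 3 of the 32851 windows held. The forkhead letters TGTTTNC and the RFX core GTTGCNA were in 0 of the 11 windows and in 17.8% and 8.77% of all. Ins1 held 3 TAAT cores and 2 E-boxes. A match describes these letters only, and for Pdx1, Neurod1, Nkx2-2, Nkx6-1, Rfx6 and the later starts of Foxa2 and Pax6 the window lies partly or wholly inside the gene as GENCODE draws it.

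**Figure D1:**
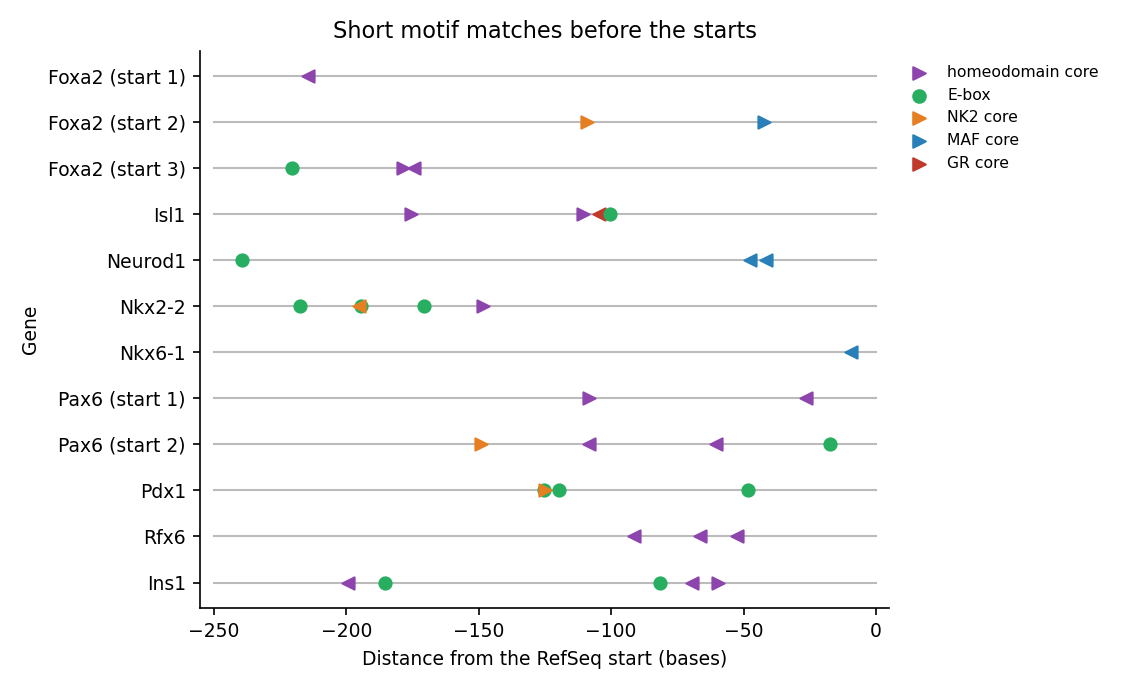
Matches to short motifs in the 250 bases before each RefSeq start of 8 members and of Ins1, against the distance from the start in bases. Triangles point along the strand of the match and circles mark E-boxes, which read alike on both strands. The Ins1 window holds 3 homeodomain cores and 2 E-boxes, and only the Isl1 window holds a GR core.

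The GR library held 18525668 reads over genes and the control library 18537326. Nr3c1, the mouse gene of the receptor, had 5202 reads with the GR vector and 2645 with the control vector, a fold of 1.97 (95% interval 1.88 to 2.07). All 7 beta cell markers were read in both libraries, from Ucn3 (145 reads with the GR vector and 159 with the control vector) to Ins2, insulin 2. The 7 markers summed to 751953 reads with the GR vector and 798647 with the control vector. In bulk RNA, fewer cells of a type and less RNA per cell cannot be told apart. Markers of other pancreatic cells were read as well, with 5801 and 5739 reads for the alpha cell list in the GR and the control library. Of these, the transthyretin gene Ttr gave 5164 and 5187 and the glucagon gene Gcg 623 and 537. Delta cell markers summed to 152 and 112 reads, duct markers to 2256 and 2525 (of which the keratin gene Krt7 gave 2166 and 2429), acinar markers to 13 and 7, and immune markers to 22 and 26.

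Mafa, the bZIP activator of insulin genes, had the highest level of the 10, and Rfx6 the lowest, in both libraries. Levels are RPKM values, reads per kilobase of the deposited gene length scaled to the library size, each from 1 library. Mafa stood at 342 with the GR vector and 336 with the control vector, and Pdx1 at 249 and 238. Nkx6-1 stood at 140 and 143, Insm1 at 92.7 and 90.2, and Neurod1 at 61.2 and 61.4, with the GR and the control vector. The lower part of the order was Nkx2-2 at 43.9 and 44.3, Foxa2 at 36.1 and 38.6, Isl1 at 29.7 and 30.4, Pax6 at 23.5 and 23.9, and Rfx6 at 15.2 and 15.1. The order was the same in both libraries, and the 95% counting intervals of neighbours in it did not overlap in either library.

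Mafa had the highest level of all 1088 genes to which the deposited table gives a transcription factor family, with either vector. Pdx1 ranked 3rd among these genes, Nkx6-1 ranked 7th, Insm1 13th, Neurod1 21st and Nkx2-2 36th, each with both vectors. Foxa2 ranked 49th with the GR vector and 44th with the control vector, Isl1 65th and 61st, Pax6 95th in both, and Rfx6 164th and 169th. Together the 10 members took 56148 reads with the GR vector and 55856 with the control vector, or 0.303% and 0.301% of each library. Mafa gave 30.9% of these reads with the GR vector and 30.6% with the control vector, and Pdx1 gave 17.7% and 17.1%.

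The level of a gene with many transcripts depends on the length it is divided by. Pax6 has 26 annotated transcripts and a deposited length of 11694 bases, the union of its exons, against 4427 bases for its longest coding transcript. Divided by that transcript, Pax6 stood at 62.1 with the GR vector and 63.1 with the control vector, and moved to the 5th place of the 10 in both. Nkx2-2 then stood at 59.5 and 60.1, Isl1 at 46.8 and 47.9, and Foxa2 at 40.2 and 43.0, with the GR and the control vector. The first 4 places, the 8th (Isl1) and the last did not move.

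**Figure D2:**
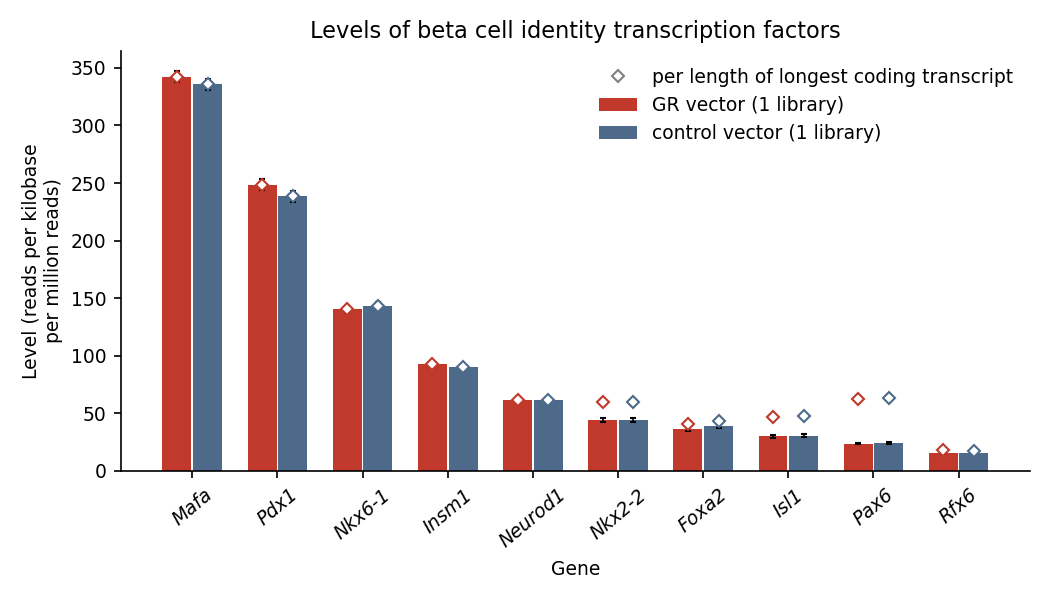
Level of each member in RPKM (reads per kilobase scaled to library size), with the GR vector (red) and the control vector (blue), 1 library each. Bars use the deposited gene length with 95% counting intervals, and diamonds the longest coding transcript. Mafa stands at 342 and 336, Rfx6 at 15.2 and 15.1, and the diamonds of Pax6 lie at 62.1 and 63.1.

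The 5 homeodomain members differed little between the libraries. Pdx1 (chr5:147269959-147275848, plus strand), which activates the insulin genes and is needed for the pancreas to form, had 9932 reads with the GR vector and 9546 with the control vector. Its fold of 1.04 had a 95% interval of 1.01 to 1.07, the only interval among the 10 members that left out 1. Nkx6-1 (chr5:101658139-101664996, minus strand), a repressor of other islet fates, had 8140 reads with the GR vector and 8338 with the control vector. The fold of Nkx6-1 was 0.979 (0.9495 to 1.01), and its interval held 1.

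Nkx2-2 (chr2:147177546-147194243, minus strand), which is needed for beta cells to form and to keep their fate, had 2335 reads with the GR vector and 2364 with the control vector, a fold of 0.991 (0.935 to 1.05). Pax6 (chr2:105668900-105697364, plus strand), which carries a paired domain as well and acts on islet hormone genes, had 5087 and 5185 reads, a fold of 0.984 (0.946 to 1.02). Isl1 (chr13:116298281-116309689, minus strand), a LIM homeodomain protein that works with the adaptor Ldb1, had 2178 and 2236 reads, a fold of 0.977 (0.920 to 1.04). All 3 were slightly lower with the GR vector, each by less than its counting error, and Nkx2-2 was higher once the trend of GC content was removed.

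The 5 members of other families lay on both sides of 1. Mafa (chr15:75745490-75748228, minus strand) had 17357 reads with the GR vector and 17066 with the control vector, a fold of 1.02 (0.999 to 1.04). Insm1 (chr2:146221921-146225020, plus strand), a zinc finger repressor of the endocrine lineage, had 5318 reads with the GR vector and 5190 with the control vector, a fold of 1.03 (0.989 to 1.07). Neurod1 (chr2:79452521-79456751, minus strand), the basic helix-loop-helix partner of E proteins on insulin E-boxes, had 3090 and 3109 reads, a fold of 0.997 (0.948 to 1.05). The intervals of these 3 genes held 1, and Neurod1 had the fold closest to 1 of all members.

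Rfx6 (chr10:51677756-51730432, plus strand), a winged helix factor of endocrine differentiation and insulin secretion, had 1128 reads with the GR vector and 1123 with the control vector. Its fold was 1.01 (0.927 to 1.095), and it had the fewest reads and the widest interval of the 10. Foxa2 (chr2:148042877-148046969, minus strand), a forkhead pioneer factor that opens chromatin for other regulators, had 1583 reads with the GR vector and 1699 with the control vector. Foxa2 was the member farthest from 1, with a fold of 0.934, and the upper end of its interval lay just above 1 (0.872 to 1.00).

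Of the 10 members, 0 were past 1.1-fold in either direction, against 7.09% of the 4867 genes averaging 1000 or more reads, the range in which all members lie. Among the 274 genes of that range with a transcription factor family, 8.76% were past 1.1-fold. Of all 11070 genes averaging 100 or more reads, 21.1% were. Past 1.2-fold were 0 members and 0.288% of the genes averaging 1000 or more reads. With a background of 7.09%, a count of 0 among 10 genes is close to what the background share itself gives, and nothing particular to the members is read from it. The intervals of 9 members lay wholly within 1.1-fold either way, as did those of 47.7% of the genes averaging 1000 or more reads, a share that depends on the reads of a gene. Foxa2 was the exception, with a lower end of 0.872. The interval left out 1 for 1 of the 10 members, Pdx1, and for 26.6% of that range of genes.

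Pdx1, Insm1, Mafa and Rfx6 had folds above 1, and the other 6 lay below it, where 53.7% of the genes averaging 1000 or more reads had a fold above 1. The median log2 fold of the members was -0.0092, beside 0.0072 over those genes. Summed over the members the fold was 1.01 (0.996 to 1.02). In the authors' deposited table the unadjusted p of the members ran from 0.814 for Foxa2 to 0.992 for Neurod1, and the adjusted p was 1 for all of them. Over all genes in the authors' deposited table, 1.09% had an unadjusted p under 0.05 and 0.0186% an adjusted p under 0.05. For Nr3c1 itself the authors' deposited table held p = 0.0183 before adjustment and 1 after it, and with 1 library per group no measured spread between replicates can stand behind these values.

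**Figure D3:**
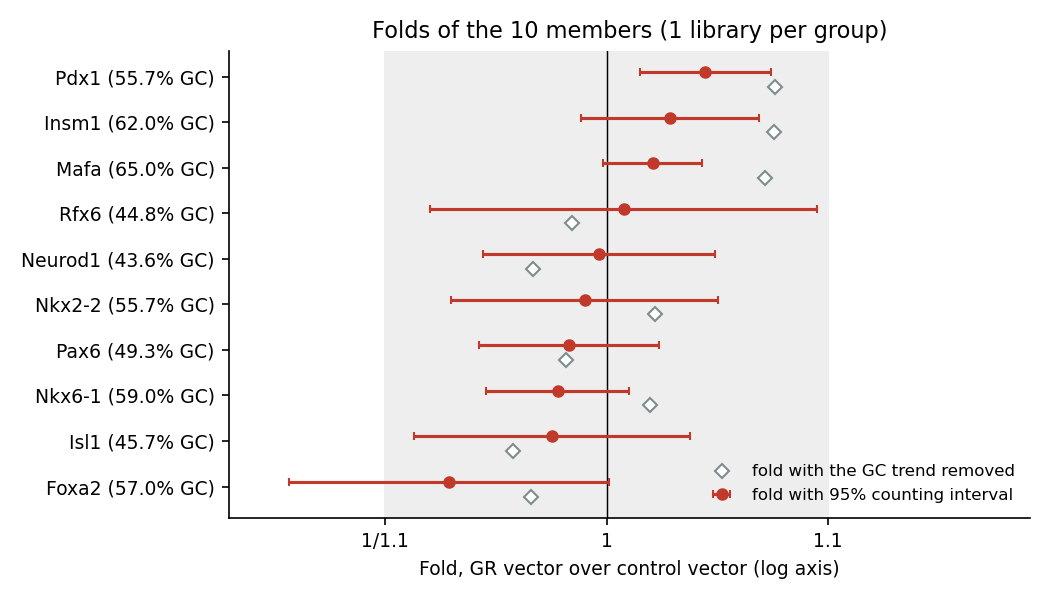
Fold of each member, GR vector over control vector, on a log axis, with 95% counting intervals (red) and with the GC trend removed (diamonds). The grey band is 1.1-fold either way. All 10 points lie in the band, Pdx1 at 1.04 is highest and Foxa2 at 0.934 is lowest.

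**Figure D4:**
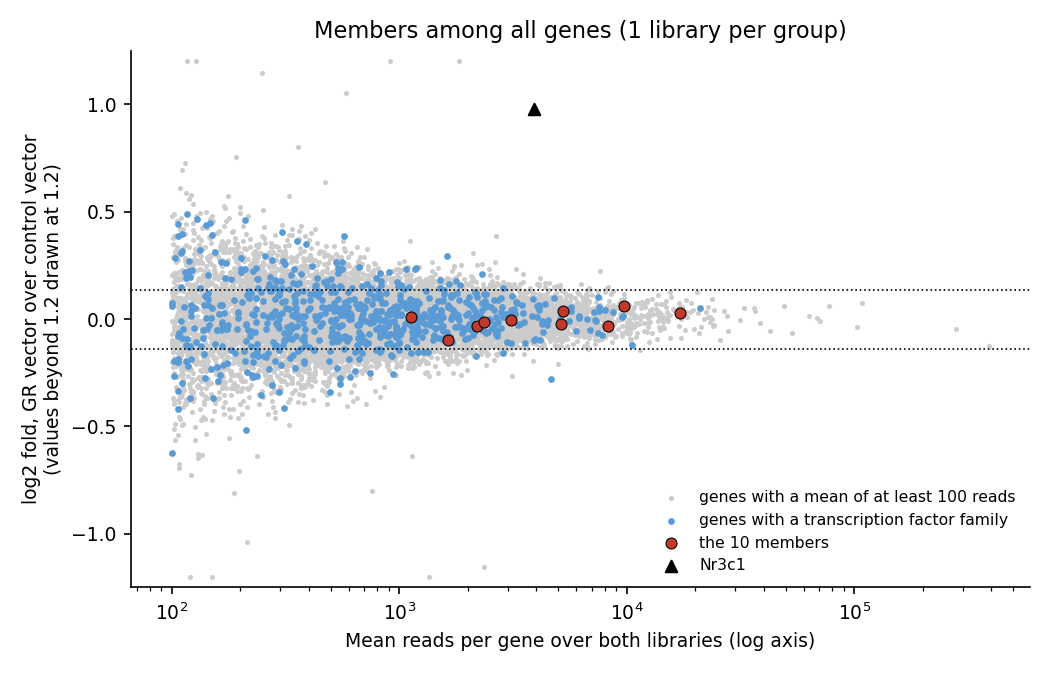
The log2 fold of the GR over the control vector against mean reads (log axis) for genes averaging 100 or more reads, with transcription factor genes in blue and the 10 members in red. Dotted lines mark 1.1-fold, and the members lie between them while Nr3c1 stands at 0.98.

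Members differ in base composition, and some of their folds moved with it. The GC content of the longest transcript ran from 43.6% for Neurod1 to 65.0% for Mafa, around a median of 49.6% for genes averaging 100 or more reads. When the trend of log2 fold on GC content was removed, Pdx1 stood at 0.10 on the log2 scale in place of 0.06, Mafa at 0.10 in place of 0.03, and Insm1 at 0.10 in place of 0.04. Nkx6-1, with a GC content of 59.0%, stood at 0.03 in place of -0.03, Nkx2-2 at 0.03 in place of -0.01 and Rfx6 at -0.02 in place of 0.01, so the sign of these 3 depends on that correction. The other 7 members kept the sign of their fold under all 6 alternatives of scaling, source of the fold and trend. Foxa2 stood at -0.05 in place of -0.10. None of the 10 passed 1.1-fold with the GC trend removed.

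In the genome, 5 of the 10 members lie on chromosome 2, and Insm1, Nkx2-2 and Foxa2 lie within 1.83 Mb of each other (chr2:146221921-148046969). The table holds 12 genes in that interval, 8 of them averaging 100 or more reads. Of those 8, 1 was past 1.1-fold, beside 21.1% of all genes with so many reads. It was Ralgapa2, named here after its values were seen, which encodes a subunit of a GTPase-activating complex for Ral. Ralgapa2 had 923 reads with the GR vector and 807 with the control vector, a fold of 1.147 (1.04 to 1.26). Mafa and Insm1 are single-exon genes, and Rfx6 has a coding transcript of 19 exons.

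Transcripts on the other strand of a member, or close beside it, were read at levels that differed widely. Plut, an antisense RNA that overlaps Pdx1 and whose human counterpart is known to act on PDX1, had 104 reads with the GR vector and 108 with the control vector, a fold of 0.966 (0.731 to 1.28), and stood at 2.72 and 2.81 RPKM. Gm27033, a noncoding gene within 5 kb of Pdx1 on its strand, had 897 and 785 reads, a fold of 1.146 (1.04 to 1.26), and at 89.1 and 77.8 RPKM it stood near the level of Insm1. Pax6os1, antisense to Pax6, had 92 and 96 reads, and 6430503K07Rik, antisense to Nkx2-2, had 415 and 391, or 47.1 and 44.3 RPKM, close to Nkx2-2 itself. Of these 4 neighbours, Gm27033 alone had an interval that left out 1, lying above it. Over the genes averaging 100 or more reads, 10.8% had an interval above 1 and 8.63% had one below it. Elp4, Cerkl and 9030622O22Rik, which also overlap a member or lie within 5 kb of one, had intervals that held 1.

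How reads on each strand were counted is not given, so reads from stretches shared by a member and its antisense partner cannot be told apart. The antisense reads came to 1.05% and 1.13% of those of Pdx1 and to 17.8% and 16.5% of those of Nkx2-2, with the GR and the control vector. Neurod1 lies inside the annotated span of Cerkl, which had 179 and 162 reads, and 11.2% of its 31-mers (stretches of 31 bases) also occur in another annotated gene. For Nkx2-2 that share was 8.98%, and 8.7% lay in the antisense gene Nkx2-2os, which had 2 reads with the GR vector and 0 with the control vector. For the other 8 members the share was at most 0.982%, and for Pdx1 it was 0%.

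Paralogs of 7 of the 10 members had values, and these show which copies of those families the cells read. Of 29 paralogs listed, 17 had a row in the table and 11 averaged 100 or more reads, and the 12 without a row were not analysed here. Maf had 37 reads with the GR vector and 55 with the control vector, and Foxa1 had 86 and 83, while the levels of Mafa and Foxa2 per length were far above them. Foxa2 stood 25.8 times as high as Foxa1 with the GR vector and 28.7 times with the control vector, and 4.29 and 4.48 times as high as Foxa3, which had 317 and 326 reads. Neurod1 likewise stood 39.5 and 40.1 times as high as Neurod4. In the Pax family the order was the other way by the deposited lengths. Pax4, a repressor that acts in beta cell development, stood at 128 with the GR vector and 138 with the control vector, above Pax6 at 23.5 and 23.9, and it was also above Pax6 at 62.1 and 63.1 by the longest coding transcript.

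Among the 11 paralogs, 2 were at least 1.1-fold higher with the GR vector and 0 were as much lower, beside 10.7% and 10.4% of the genes averaging 100 or more reads. Their median log2 fold was -0.04, beside 0.0042 over those genes. Cdx2, with a fold of 0.90913, lay just inside the lower limit of 0.90909, so the count of 0 lower paralogs rests on that margin. Rfx3, an RFX factor of ciliated and endocrine cells, had 647 reads with the GR vector and 496 with the control vector, a fold of 1.31 (1.16 to 1.47). Rfx5, an activator of MHC class II genes, had 494 and 439 reads, a fold of 1.13 (0.990 to 1.29), and 24.0% of its 31-mers occur in another gene. Pax4 had 3413 and 3692 reads, a fold of 0.927 (0.885 to 0.972). The interval of Rfx3 alone lay above 1 and that of Pax4 alone below it, beside 10.8% and 8.63% of the genes averaging 100 or more reads. The other RFX genes, named here after their values were seen, had folds of 0.951 (Rfx1), 1.00 (Rfx2) and 1.02 (Rfx7), with intervals that held 1.

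The remaining paralogs named by rule had intervals that held 1. Mnx1, a homeodomain factor of the early pancreas, had 1114 reads with the GR vector and 1181 with the control vector, and Lhx1 had 1020 and 1007. Pax2 had 900 and 983 reads, and the intestinal factor gene Cdx2, a neighbour of Pdx1 in the ParaHox cluster, had 543 and 599. The folds of Pax2 and Cdx2 were 0.918 (0.838 to 1.01) and 0.909 (0.808 to 1.02).

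Other islet transcription factors lay on both sides of 1. Of 27 listed, 22 had a row and 20 averaged 100 or more reads, of which 4 were at least 1.1-fold higher and 2 as much lower with the GR vector, beside 10.7% and 10.4% of all genes with so many reads. Their median log2 fold was 0.05. Mlxipl, the glucose-sensing factor ChREBP, had 4203 reads with the GR vector and 5112 with the control vector, a fold of 0.825 (0.791 to 0.859). St18, a zinc finger factor of the Myt family, had 2483 and 2154 reads, a fold of 1.16 (1.09 to 1.23), while Myt1 of the same family had 3297 and 3368, a fold of 0.982 (0.935 to 1.03). Thus Mlxipl and St18 stood outside counting error in opposite directions and Myt1 did not. Over the 20 genes, the intervals of 4 lay above 1 and that of 1 below it. The shares over all genes with so many reads were 10.8% and 8.63%.

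Fewer reads stood behind the other extremes of that list. Bach2, a bZIP repressor, had 337 reads with the GR vector and 280 with the control vector, a fold of 1.21 (1.03 to 1.42). Esrrg, an orphan nuclear receptor tied to beta cell maturation, had 224 and 249, a fold of 0.902 (0.750 to 1.09), and its interval held 1. The remaining 2 genes at least 1.1-fold higher, named here after their values were seen, were Etv1 with 1875 and 1662 reads and Meis2 with 154 and 134. With the GC trend removed Etv1 stood at 0.12 on the log2 scale, under 1.1-fold.

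Cofactors and chromatin partners had folds on both sides of 1. Of 33 listed, 31 averaged 100 or more reads, of which 1 was at least 1.1-fold higher and 1 as much lower with the GR vector, beside 10.7% and 10.4% of all genes with so many reads. The intervals of 3 lay above 1 and those of 5 below it, beside 10.8% and 8.63% of those genes, and their median log2 fold was -0.0038. Chd4, a remodeller of the NuRD complex that binds Pdx1, had 12840 reads with the GR vector and 12699 with the control vector, a fold of 1.01 (0.989 to 1.04). The DNA methyltransferase genes Dnmt1 and Dnmt3a had folds of 1.00 (0.973 to 1.03) and 1.03 (0.994 to 1.06). Ldb1, the adaptor of Isl1, had 1992 and 2164 reads, a fold of 0.923 (0.868 to 0.982). With the GC trend removed Ldb1 stood at -0.06 on the log2 scale in place of -0.12, and Isl1 at -0.06 in place of -0.03.

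At the upper end were Kat2b, a histone acetyltransferase, with 1373 reads with the GR vector and 1250 with the control vector, and Usp9x, a deubiquitinase, with 6281 and 5780. Their folds were 1.102 (1.02 to 1.19) and 1.09 (1.05 to 1.13), and with the GC trend removed Kat2b stood at 0.12 on the log2 scale, under 1.1-fold. Tle2, a corepressor of the Groucho family, had 164 and 226 reads, a fold of 0.728 (0.592 to 0.894), the lowest of that list.

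Target genes of the members in beta cells had folds on both sides of 1, and most differences were small. Of 32 listed, 31 averaged 100 or more reads, of which 0 were at least 1.1-fold higher and 3 as much lower with the GR vector, beside 10.7% and 10.4% of all genes with so many reads, and the median log2 fold was 0.01. The intervals of 10 lay above 1 and those of 10 below it, beside 10.8% and 8.63% of those genes, a share that grows with the reads of a gene. Ins2 had 373033 reads with the GR vector and 407986 with the control vector, a fold of 0.917 (0.913 to 0.921). Iapp, the amylin gene, had 273874 and 283796 reads, a fold of 0.968 (0.963 to 0.973), and the granin gene Chga 101349 and 104300, a fold of 0.975 (0.966 to 0.983). These 3 most read targets were lower with the GR vector by more than counting error. With the GC trend removed, however, Chga stood at 0.02 on the log2 scale in place of -0.04. Iapp then stood at -0.11 in place of -0.05, and Ins2 at -0.10 in place of -0.13. Ins1, whose promoter is shown above, had 51817 reads with the GR vector and 54374 with the control vector, a fold of 0.956 (0.944 to 0.967). Pdx1 and Mafa, which act on the insulin genes, had folds of 1.04 and 1.02. Any link between these factors and the targets was not tested.

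Gipr, the receptor of the incretin GIP, had 1179 reads with the GR vector and 1407 with the control vector, a fold of 0.840 (0.777 to 0.909). Fgfr1, a growth factor receptor described downstream of Pdx1, had 120 and 157, a fold of 0.767 (0.599 to 0.978). The highest folds were those of Scg5, the chaperone of prohormone convertase 2, with 2809 and 2576 reads (1.09, 1.04 to 1.154), and of the convertase gene Pcsk1, with 3543 and 3279 (1.08, 1.03 to 1.14). These genes were named for their extreme folds, so no theme is read from what they encode. Among other genes of that list, the receptor genes Ffar1 and Glp1r had folds of 1.04 and 1.01. The processing genes Pcsk2 and Cpe had folds of 1.03 and 1.04, and all of these were named after their values were seen. The third gene past 1.1-fold, named here after its values were seen, was the calcium channel gene Cacna1d, with 1004 reads with the GR vector and 1116 with the control vector.

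**Figure D5:**
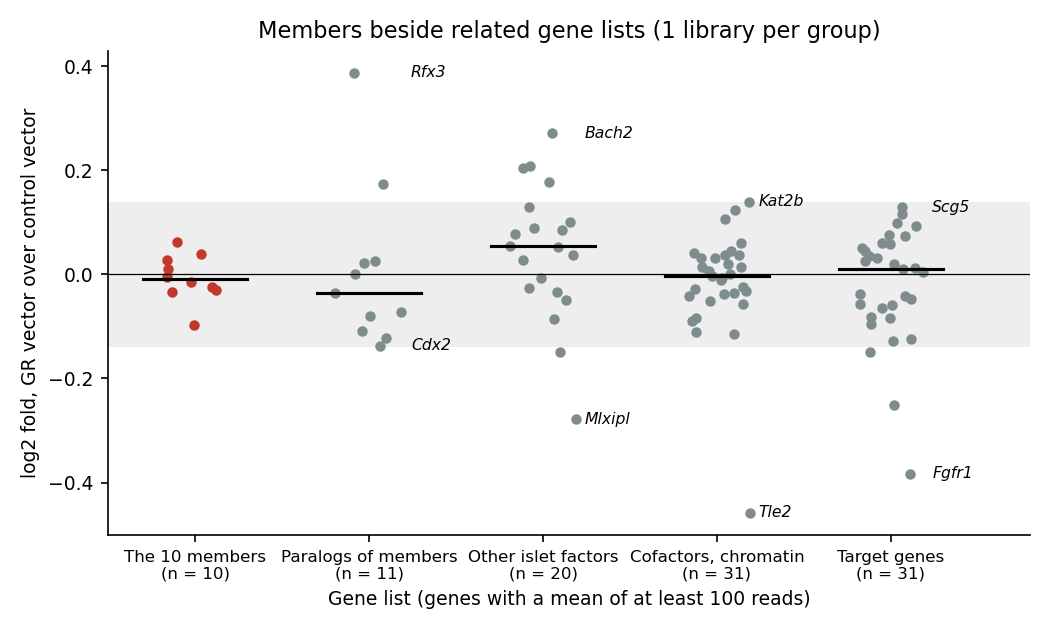
The log2 fold of the GR over the control vector for the 10 members (red) and for genes of the related lists averaging 100 or more reads (grey), with medians as bars and 1.1-fold either way as the grey band. The members lie inside the band, while Rfx3 at 0.39, Mlxipl at -0.28 and Tle2 at -0.46 lie outside it.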

How the data were processed

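Messenger RNA of 1 MIN6 library with the GR vector and 1 with the control vector was analysed from a table of all genes. The authors deposited scaled counts per gene and library (a normalized signal), gene lengths, a log2 fold change and p-values. DESeq2 1.10.1 is named in the submitters' processing notes. For the counts, aligner, counter, strand setting and build are not given in the sources used. Dividing each deposited signal by 1 step per library gave whole reads for 100% of values (within 0.01 reads), with totals of 18525668 for the GR vector and 18537326 for the control vector. Folds used TMM library sizes from edgeR 4.0.16 and exact 95% Clopper-Pearson intervals (SciPy 1.17.1). These intervals cover counting error only. They treat every read as independent, and are too narrow where several reads are copies of 1 molecule. The design had no replicates, so no test between the groups was run, and a member counted as past the threshold at a fold of 1.1 either way. GENCODE M21 (GRCm38) holds 99.9% of the table's genes, 96.8% of them at the same coordinates and all 10 members among these. GENCODE gave transcript GC content, exons and shared 31-mers, and RefSeq (GRCm38.p6) gave promoter sequences. The alternatives were other scalings, the deposited fold change, removal of GC or length trends, other thresholds and another gene length. The script was tested on simulated data. All 10 members and Nr3c1 were named, and from each related list the 3 genes with the most reads and, among genes averaging 100 or more reads, the 2 highest and 2 lowest folds. The members and lists were chosen with earlier results of these data known.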

Additional observations from a re-analysis of the deposited data

How the results depend on the processing

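With 1 library per group no replicate could be left out, and no paired analysis was possible because the groups hold 1 library each and the result comes from no test. The count of 0 members past 1.1-fold was 0 under each of the 6 alternatives of scaling, source of the fold and trend, at 1.2-fold and with other minimum reads. It was 1, Pdx1, when the call was a 95% interval that leaves out 1. Of 60 values of single members under these alternatives, 56 stayed inside the counting interval of the main value. The 4 that did not all came from removing the GC trend. Their log2 folds were 0.10 for Pdx1, 0.10 for Mafa, 0.027 for Nkx6-1 and 0.10 for Insm1, and the cause was not tested. The other scalings shift every gene alike and by little, and the deposited fold nearly equals the main one. Values from those alternatives could hardly leave the interval, so most of the 60 say little about how firm the folds are. The median log2 fold of the members was 0.0028 with the GC trend removed, against -0.0092. The median level of the members in the GR library was 61.6 RPKM by the longest coding transcript, an alternative chosen after the data were seen, because that length is shorter for 5 members. The median of all genes averaging 100 or more reads stayed within 0.01 of 0 on the log2 scale under every scaling tried. Such scalings centre the genes and the library totals nearly match, so that median was almost fixed in advance and says little about the folds. Reads per gene limit the precision: the interval of Rfx6 spans 16.7% of its fold and that of Mafa 4.24%.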
